A study of Homo sapiens with 2 samples.

Results

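The 43 genes described here code for keratins, tight junction proteins, desmosome proteins, and regulators and surface proteins of epithelial cells, among 19775 genes that the arrays' annotation names through a probe set of their own. They were taken by name: 15 keratins, 8 tight junction genes, 8 desmosome genes and 12 regulators or surface genes. A probe set is a group of short probes for a transcript, and 37 of the 43 genes had at least 1 probe set annotated to them alone, 74 probe sets in all. The annotation used here lists no such probe set for KRT6A, KRT6B, KRT17, KRT81 and KRT86. ESRP2 shares its probe set with a microRNA gene, MIR6773, and no value was credited to it.

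The cells are MDA-MB 231, a human breast cancer line that its label describes as highly invasive and estrogen receptor negative. The vector cells were stably transfected with the plasmid pIRES2-EGFP alone, and the S100A7 cells with the same plasmid carrying S100A7, the gene of a small calcium-binding protein of inflamed skin. Both therefore carried the plasmid and the selection for stable cells, and the series asks which genes S100A7 regulates. There was 1 array per group, so a difference between them cannot be told apart from the spread between cultures or between selected lines, and no test or p-value was possible. How many clones make up each line is not given in the sources used here, and the description of the S100A7 sample also holds a line on embryos that describes no cell line.

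Keratins are the intermediate filaments of epithelial cells and assemble as pairs of a type I and a type II chain. Tight junctions seal the space between epithelial cells through claudins and occludin, held by ZO scaffolds, and desmosomes tie the keratin filaments of neighbouring cells together through desmosomal cadherins, plakoglobin, plakophilins and desmoplakin. Carcinoma cells with mesenchymal features lose many of these parts, and the repressors ZEB1, Snail and Slug, which bind E-box sequences in DNA, are known to shut epithelial genes down.

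The transfected gene checked the labels: its probe set, at 12.0 with the vector alone, stood at 13232 in the S100A7 cells, at least 186-fold above the vector value, which lay under the floor. Intensities are MAS5 values on a linear scale, and each array's median over probe sets other than controls served as its floor, 71.0 for vector and 69.0 for S100A7. A value at or above the floor is called here reaching the floor. This is not a detection call, and because probes differ in brightness no gene's level is set against another's. Of 10 mesenchymal markers listed, 6 reached the floor on both arrays, 3 on 1 array and 1, TWIST1, on neither. That is 60% on both arrays, near the 56.9% of all genes. Of 5 epithelial markers listed, 3 reached it on both arrays, also 60%, 1 on 1 array and 1 on neither. These counts therefore do not set the 2 lists apart. Both probe sets of CDH1, the gene of E-cadherin, lay below the floor on both arrays (18.1 and 6.65 in vector cells, 5.79 and 4.05 in S100A7 cells). The brightest probe set of VIM, the gene of the mesenchymal filament protein vimentin, read 38087 and 35575 in vector and S100A7 cells, that of ZEB1 3092 and 3971, and the single one of SNAI2, which codes for Slug, 1377 and 2912. The leukocyte markers PTPRC, LYZ, TYROBP and CD3E, 4 of 5 listed with a probe set of their own, were below the floor on both arrays, with 9 probe sets between 1.33 and 34.2 in vector cells and between 2.12 and 50.1 in S100A7 cells.

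More than 1 in 2 of the epithelial genes were read above the floor in both lines. Of the 37 genes, 22 had a probe set that reached the floor on both arrays, 6 had probe sets that reached it on 1 array only, and 9 were below it on both. Over all 19775 genes the shares were 56.9%, 7.23% and 35.8%, so the 59.5% of these genes that reached it on both arrays lay near the background, which is set by using the median as the floor. The groups differed among themselves in this count. Desmosome genes reached the floor on both arrays in 7 of 8 cases, tight junction genes in 5 of 8, keratins in 5 of 10 with a probe set, and regulators or surface genes in 5 of 11. No test was made of these differences, and they change with the floor. The groups also differ in their number of probe sets, whose part was not tested. With the floor at the 70th percentile the 5 keratins stayed, while DSC2, JUP, PKP3 and some genes of the other groups did not. The 8 desmosome genes had 20 probe sets, the 8 tight junction genes 18, the 10 keratins 16 and the 11 regulators or surface genes 20. Over all genes, those with more probe sets reached the floor more often, as given below. In these bulk samples, fewer cells with a transcript and less transcript per cell cannot be told apart.

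**Figure D1:**
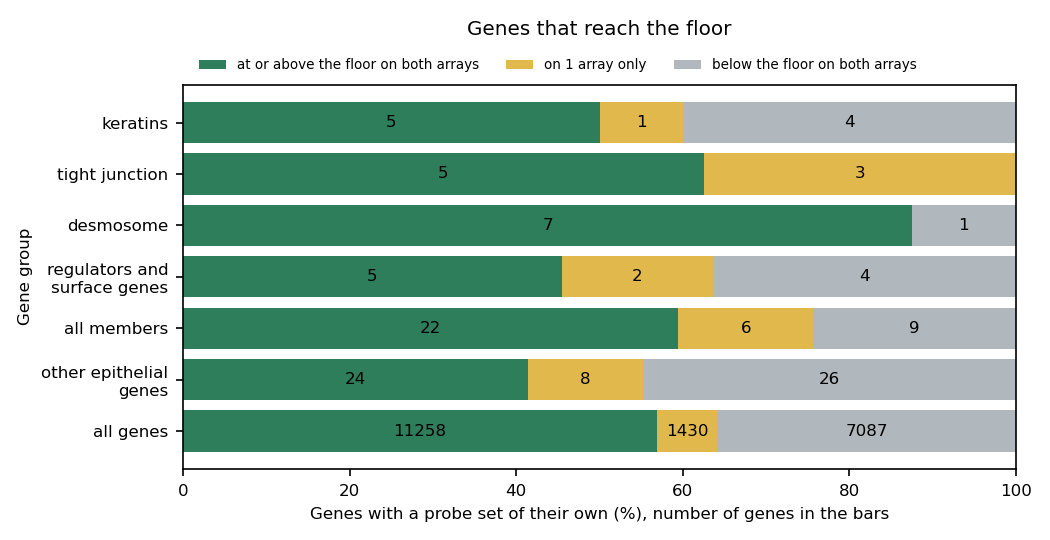
Share of genes (%) in each gene group that reached the floor on both arrays, on 1 array only or on neither, among genes with a probe set of their own, with the number of genes in each bar. Desmosome genes reached it on both arrays in 7 of 8 cases and regulators or surface genes in 5 of 11, against 11258 of all 19775 genes.

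The sorting into kept and low genes depends on the floor, so the genes that stayed in place when it was moved are given by name. With the floor at each array's 70th percentile (283.0 for vector, 282.9 for S100A7), 13 genes still reached it on both arrays: KRT7, KRT8, KRT10, KRT18, KRT80, OCLN, TJP1, DSP, DSG2, PKP2, PKP4, EPCAM and SPINT2. With the floor at the 30th percentile (26.6 and 25.5), 5 genes were still below it on both: the basal and stress keratin genes KRT5, KRT14 and KRT16, the transcription factor gene GRHL2 and the GTPase gene RAB25. Over all genes, 41.9% reached the 70th percentile on both arrays and 15.2% lay below the 30th on both. Neither 13 nor 5 of the 37 genes is a larger share than that.

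Upstream sequences of members are shown because ZEB1 and Slug, both read above the floor on both arrays, bind the E-box CACCTG. RefSeq's table on GRCh38.p14 matched 21 of the 43 genes, with 33 start sites. The 250 bases before each start were searched on both strands for CACCTG, which reads CAGGTG on the other strand. It was found at 15 of 33 starts (45.5%), against 17.5% of all 35116 starts in the table, and at 13 of 21 genes, against 20.6% of all 27305 genes. The starts of 1 gene can share bases, as both of MUC1 do, and among genes with 1 start it was found at 5 of 11 members and 17.6% of all 22114. The members' upstream stretches had a median GC content of 66%, against 58% over all starts. The part of base composition in this was not tested. Kept and low genes both held the E-box: 9 of 14 members that reached the floor on both arrays held it, 2 of 4 that reached it on 1, and 2 of 3 below it on both (KRT5 and RAB25, not DSC3). A match is a description of these letters, not a binding site. The 250 bases before the start are given 5′ to 3′ on the gene's strand, with the E-box in capitals, for 3 genes that reached the floor on both arrays and 2 below it on both. DSP lies at chr6:7541421-7541670 on the plus strand, DSG2 at chr18:31497927-31498176 on the plus strand, ELF3 at chr1:202010337-202010586 on the plus strand, KRT5 at chr12:52520395-52520644 on the minus strand and RAB25 at chr1:156060910-156061159 on the plus strand.
DSP: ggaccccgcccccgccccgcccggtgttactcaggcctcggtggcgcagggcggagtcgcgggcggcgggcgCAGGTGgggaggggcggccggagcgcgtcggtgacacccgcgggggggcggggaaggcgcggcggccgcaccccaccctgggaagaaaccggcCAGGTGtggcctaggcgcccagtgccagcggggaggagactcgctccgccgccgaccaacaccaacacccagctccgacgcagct
DSG2: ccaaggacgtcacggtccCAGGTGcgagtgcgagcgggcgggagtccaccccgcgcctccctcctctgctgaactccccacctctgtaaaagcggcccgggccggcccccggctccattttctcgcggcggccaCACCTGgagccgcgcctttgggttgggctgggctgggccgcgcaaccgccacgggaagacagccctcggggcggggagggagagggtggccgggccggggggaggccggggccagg
ELF3: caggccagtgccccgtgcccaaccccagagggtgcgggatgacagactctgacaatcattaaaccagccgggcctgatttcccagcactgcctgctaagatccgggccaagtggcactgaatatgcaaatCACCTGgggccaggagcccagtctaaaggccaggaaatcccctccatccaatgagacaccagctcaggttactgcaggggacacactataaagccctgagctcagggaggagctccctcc
KRT5: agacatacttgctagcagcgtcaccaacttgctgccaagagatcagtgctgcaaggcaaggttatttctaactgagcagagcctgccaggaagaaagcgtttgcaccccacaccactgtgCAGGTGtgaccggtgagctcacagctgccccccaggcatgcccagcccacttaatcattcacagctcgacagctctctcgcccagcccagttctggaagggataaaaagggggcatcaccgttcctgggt
RAB25: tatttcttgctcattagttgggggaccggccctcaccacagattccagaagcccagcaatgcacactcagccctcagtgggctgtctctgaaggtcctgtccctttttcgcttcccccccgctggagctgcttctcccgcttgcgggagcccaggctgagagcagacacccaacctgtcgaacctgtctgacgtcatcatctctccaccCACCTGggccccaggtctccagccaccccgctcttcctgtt
The E-boxes of DSP, the desmoplakin gene, begin 178 and 85 bases before the start, and those of DSG2, a desmosomal cadherin gene, 232 and 116 bases before it. The single E-box begins 120 bases before the start in ELF3, 130 in KRT5 and 41 in RAB25. All 5 genes shown hold the E-box, so they cannot show how it is spread over kept and low genes. Among members that reached the floor on both arrays, KRT8, KRT10, CLDN1, CLDN4 and PKP4 held none. ELF3 was only just above the floor in vector cells. Whether the E-box bears on the level of these genes was not tested.

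Among the keratins, the pair of simple epithelia was kept and the pair of basal epithelia was not. KRT8, the type II chain of simple epithelia, read 6412 in the vector and 6927 in the S100A7 cells. KRT18, its type I partner and its neighbour on chromosome 12, read 18785 and 15669.6. Both arrays were thus far above the floor for both chains, with log2 ratios of S100A7 over vector of 0.11 and -0.26. Each was read by a single probe set whose suffix _x_at marks probes that can match other transcripts, and KRT8 and KRT18 have many processed pseudogenes. KRT80, a type II keratin gene beside KRT7 on chromosome 12, read 1756 and 1859 (log2 ratio 0.08).

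KRT10, a type I keratin best known from the suprabasal epidermis, had 3 probe sets, all above the floor and all lower in S100A7 cells. They read 5113 and 4156, 4543 and 3008, and 3243 and 2674 in vector and S100A7 cells, with log2 ratios of -0.30, -0.59 and -0.28. All 3 carry suffixes for shared transcripts.

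KRT7, a type II keratin of simple and glandular epithelia, gave opposite readings from its probe sets. The brightest read 1535 in the vector and 3071 in the S100A7 cells, 2.00-fold higher, which is just past the 2-fold size used to count genes. A second read 362 and 199.5, or -0.86 on the log2 scale, and the other 2 lay below the floor on both arrays (11.8 and 14.6, 56.3 and 28.9). The higher reading rests on a probe set with the suffix _s_at (probes that may match more than 1 transcript), and without such probe sets the log2 ratio of KRT7 is -0.86. The direction of KRT7 is therefore not settled by these arrays.

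The remaining keratins lay low. KRT5 and KRT14, the pair of basal epithelial cells, read 13.9 and 4.97 in the vector and 7.27 and 2.72 in the S100A7 cells. KRT15, also of basal cells, read 41.9 and 49.2, and KRT16, a keratin of stressed and healing epidermis, 7.41 and 13.6. KRT19, a type I keratin of simple epithelia, reached the floor with 1 of 2 probe sets and in vector cells only, at 72.6 against 41.6, and its other probe set read 19.0 and 4.32. Both KRT19 probe sets were thus dimmer on the S100A7 array, but near or below the floor, where differences have no firm size.

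Tight junction genes were kept in their core and varied in their claudins. TJP1, which codes for the scaffold ZO-1, read 2712 in the vector and 2098 in the S100A7 cells, and its other probe set 776 and 659, with log2 ratios of -0.37 and -0.24. OCLN, the occludin gene, read 758 and 711 with its brightest probe set, 181 and 161 with the next and 159 and 106 with the third, at -0.09, -0.16 and -0.59. All 5 of these readings were lower in S100A7 cells and all were within 2-fold. The last OCLN probe set lay below the floor, at 27.3 and 49.1.

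CLDN4, a claudin that tightens the barrier to sodium, had the lowest log2 ratio of the 28 genes measured, that is, reaching the floor on at least 1 array. This ranking sets values below the floor to it, so 6 of the 28 are bounds. CLDN4 read 409 in the vector and 211 in the S100A7 cells, 1.94-fold lower, just inside the 2-fold size. Its other probe set lay below the floor (6.49 and 19.6). CLDN7, a claudin that binds EPCAM at the lateral membrane, read 248 and 199.95 (log2 ratio -0.31). CLDN3, the neighbour of CLDN4 on chromosome 7, was at the edge of the floor, at 74.6 and 54.0 with 1 probe set and 18.3 and 47.7 with the other, so the sign differed between them. Genes of chromosome 7 had a median log2 ratio of -0.30 over 576 measured genes, and its part in the value of CLDN4 was not tested.

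Of the other claudins, CLDN1, a main claudin of the skin barrier, read 74.7 and 124 (log2 ratio 0.73), with its other probe set below the floor at 10.2 and 2.58. CLDN11, known from myelin and from the testis, was read above the floor only in S100A7 cells and by 1 of 3 probe sets, at 12.9 and 92.1. Set against the floor this is at least 1.30-fold higher, and the other probe sets read 27.0 and 23.6, and 9.78 and 2.02. TJP3, the gene of the scaffold ZO-3, read 106 in the vector and 68.97 in the S100A7 cells, just under the S100A7 floor, and 10.4 and 33.1 with its other probe set. None of the 8 tight junction genes was called at 2-fold. CLDN1, CLDN4, CLDN7, OCLN and TJP1, 5 of the 8, lay within it, while the values of CLDN3, CLDN11 and TJP3 are bounds that leave the size of the difference unknown. CLDN11 had a log2 ratio of at least 1.79 with the floor at the 30th percentile. As reported, 6 of 8 had log2 ratios below 0, with a median of -0.21.

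Desmosome genes were read above the floor on both arrays in all cases but DSC3, and none of the 7 was outside 2-fold with its brightest probe set. DSG2, the desmoglein found in simple epithelia, read 3996 in the vector and 4073 in the S100A7 cells with the brighter probe set and 1397 and 1505 with the other. Its log2 ratios of 0.03 and 0.11 differed by less than 0.36, the spread (SD) that log2 ratios showed among probe sets of 1 gene over 6465 genes. DSC2, its desmocollin counterpart, read 204 and 218 with its brightest probe set (log2 ratio 0.10) and 80.7 and 77.4 with the next (-0.06), while 2 more lay below the floor. Both genes lie on chromosome 18, where 179 measured genes had a median ratio (log2) of 0.35, and both read below that median.

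DSC3, a desmocollin of basal and stratified epithelia, lay below the floor with all 3 probe sets, at 27.6, 57.8 and 23.1 in the vector and 25.8, 15.3 and 48.4 in the S100A7 cells. It was the 1 of the 8 desmosome genes under the floor on both arrays, although 1 of its probe sets reached the 30th percentile on both.

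All 5 plaque protein genes among the 43, DSP, JUP, PKP2, PKP3 and PKP4, reached the floor on both arrays. DSP, whose product desmoplakin anchors keratin filaments, read 974 in the vector and 818 in the S100A7 cells (log2 ratio -0.25) with its single probe set. JUP, the gene of plakoglobin, read 191 and 269 (log2 ratio 0.49), the highest log2 ratio of the group. Plakophilins link the cadherins to desmoplakin. PKP2 read 292 and 383 with 1 probe set and 122 and 133 with the other, and PKP3 read 154 and 174, and 113 and 118, all 4 slightly higher in S100A7 cells (log2 ratios from 0.07 to 0.39). All probe sets of JUP, PKP2 and PKP3 carry the suffix _s_at.

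PKP4, also called p0071, a plakophilin relative found at adherens junctions too, went the other way with all 5 of its probe sets. The brightest read 2232 in the vector and 1662 in the S100A7 cells. The others read 2006 and 1559, 1191 and 1077, 108 and 87.7, and 126 and 44.1, the last of these below the floor in S100A7 cells. Log2 ratios ran from -0.87 to -0.15, with -0.43 for the brightest, so the direction was shared by the 5 probe sets. The -0.87 is that of the last, a bound set by the floor, and the 4 probe sets above the floor on both arrays were within 2-fold. PKP4 lies on chromosome 2, where 820 measured genes had a median of -0.12. Among the 7 measured desmosome genes 5 had log2 ratios above 0, and the median was 0.10.

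**Figure D2:**
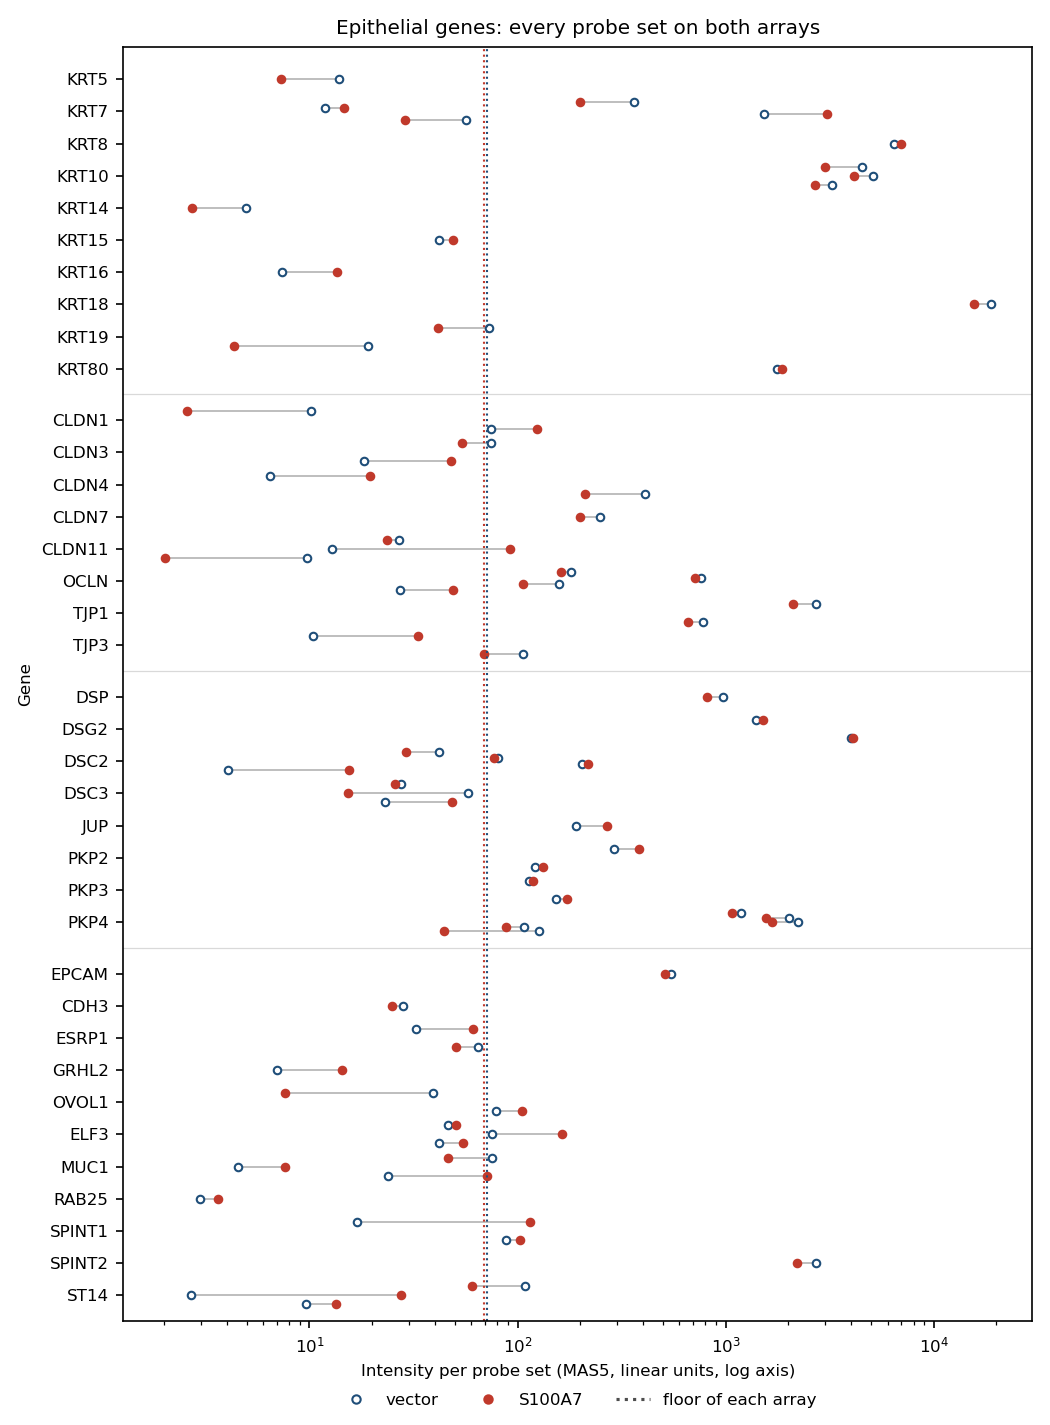
Intensity (MAS5, linear units on a log axis) of all 74 probe sets of the 37 genes in vector cells (open circles) and S100A7 cells (filled circles), with a line joining the arrays and dotted lines at the floors of 71.0 and 69.0. KRT8, KRT18, DSG2 and TJP1 lie far above the floors on both arrays, and KRT5, KRT14, GRHL2 and RAB25 far below them.

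Among the surface genes, EPCAM and SPINT2 were kept, SPINT1 was just above the floor, and the others lay at its edge or below it. EPCAM, an adhesion molecule of epithelial cells and carcinomas, read 544 in the vector and 513 in the S100A7 cells, above the floor on both (log2 ratio -0.09). Its single probe set carries the suffix _s_at. SPINT2, an inhibitor of membrane serine proteases, read 2715 and 2194 (log2 ratio -0.31), also with a single _s_at probe set. SPINT1, its relative, read 88.2 and 103 with 1 probe set, and 16.9 and 115 with the other, which is at least 1.62-fold higher because the vector value lies below the floor. ST14, which codes for matriptase, a protease held in check by both inhibitors, read 108 in the vector and 60.1 in the S100A7 cells, where it was below the floor, so it is at least 1.57-fold lower with that probe set. The other ST14 probe sets stayed under the floor on both arrays and were dimmer in vector cells (2.69 and 27.5, 9.66 and 13.4).

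MUC1, a cell-surface mucin of glandular epithelia, stayed at the edge of the floor, at 75.6 and 46.5 with 1 probe set, 23.8 and 71.2 with the next and 4.52 and 7.63 with the third. CDH3, the gene of P-cadherin of basal cells, read 28.1 and 25.1, and RAB25, a GTPase of apical recycling in epithelia, 2.99 and 3.62. Neither CDH3 nor RAB25 reached the floor on an array.

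Of the regulators of the epithelial state, GRHL2 and ESRP1 lay below the floor on both arrays, and OVOL1 and ELF3 were close to it in vector cells. GRHL2, a transcription factor that maintains junction genes and opposes ZEB1, read 7.02 in the vector and 14.4 in the S100A7 cells. ESRP1, which directs epithelial splicing, read 32.6 and 61.1 with 1 probe set and 64.6 and 50.5 with the other. The probe set listed for both ESRP2 and MIR6773 read 213 in the vector and 65.3 in the S100A7 cells, below the S100A7 floor of 69.0. It was thus lower in S100A7 cells by more than 2-fold. The annotation does not assign it to 1 of the 2 genes, so it is left out of all counts given here. OVOL1, a transcription factor that represses mesenchymal genes, reached the floor with 1 of 2 probe sets, at 78.7 and 105, while the other read 39.3 and 7.62.

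ELF3, an epithelial transcription factor of the ETS family, had the highest log2 ratio of the 28 measured genes with values below the floor set to it. Because 6 of the 28 values are bounds, the gene with the largest difference is not known. With the floor at the 30th percentile CLDN11 had a log2 ratio of at least 1.79, and ELF3 1.11. ELF3 read 75.6 in vector cells, just above the floor, and 164 in S100A7 cells, 2.17-fold higher. Its other probe sets read 46.1 and 50.8, and 42.0 and 54.5, so all 3 were brighter in S100A7 cells, but those 2 stayed below the floor on both arrays. The probe set that reached the floor carries the suffix _s_at.

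Few of these genes passed 2-fold between S100A7 and vector cells. Past the 2-fold size were 2 of the 28, both higher in S100A7 cells, KRT7 and ELF3, against 1.8% of the 12688 genes measured in all, and 0 were at least 2-fold lower, against 2.25% of all. Of the other 26, 20 lay within 2-fold with both arrays above the floor. The other 6, KRT19, CLDN3, CLDN11, TJP3, MUC1 and ST14, have only a bound because 1 array lay below the floor, and cannot be placed within 2-fold. A log2 ratio above 0 was found for 13 of the 28 and below 0 for 15, and the values ran from -0.96 to 1.11. The median log2 ratio was -0.08, and that of all measured genes -0.04. The 2 higher genes are limited as given above: KRT7 by a probe set of opposite sign, ELF3 by a vector value at the floor. The count of 0 lower leaves out the probe set shared by ESRP2 and MIR6773, which was lower by more than 2-fold.

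**Figure D3:**
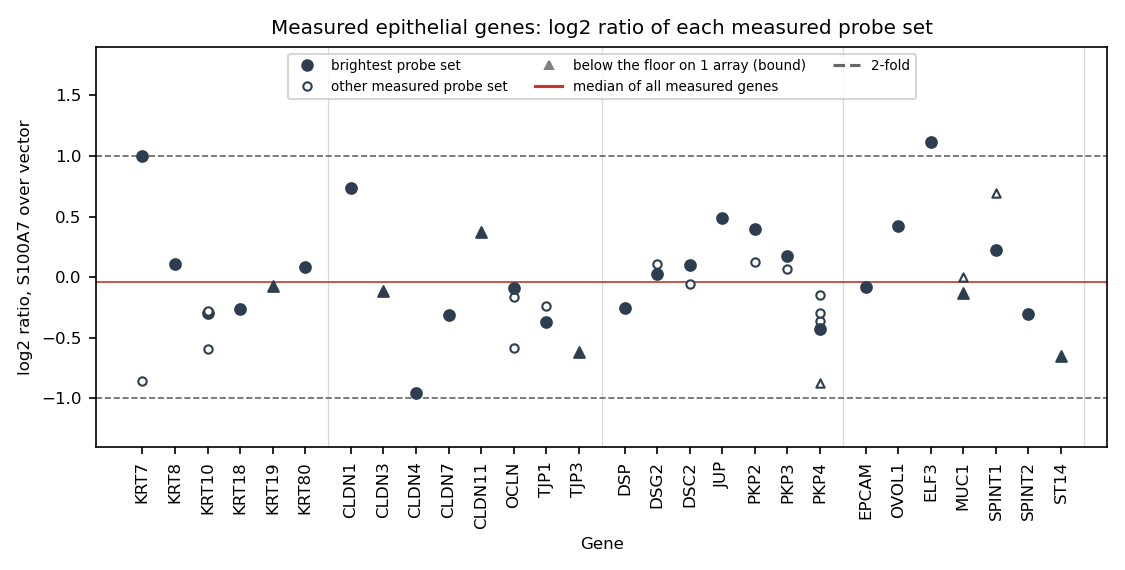
Log2 ratio of S100A7 over vector for each measured probe set of the 28 measured genes; filled symbols are the brightest probe set, open symbols the others, and triangles are bounds with 1 array below the floor. The dashed lines mark 2-fold and the solid line the median of all measured genes, -0.04; KRT7 and ELF3 sit at or above the upper line and CLDN4 just inside the lower one.

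A wider list of 63 other epithelial genes held a smaller share that reached the floor on both arrays, 41.4%, against 56.9% of all genes. Below it on both arrays were 44.8%, against 35.8% of all genes. Of 58 with a probe set of their own, 24 reached it on both arrays, 8 on 1 array and 26 on neither. Other keratins had the largest share of low genes among the 4 groups of this list, with 8 of 11 below the floor on both arrays and KRT9 alone reaching it on both, at 80.7 and 78.3. Of 9 other desmosome, cornified envelope and adherens junction genes with a probe set, 4 reached the floor on both arrays: EVPL (envoplakin), PERP, CTNNA1 (alpha-catenin) and CTNNB1 (beta-catenin). DSG1, DSG3, DSC1, PKP1 and PPL, of stratified epithelia, were below it. CLDN2, a pore-forming claudin, was the 1 of 32 measured genes on this list at least 2-fold higher, against 1.8% of all measured genes. It read 51.1 in the vector and 179.9 in the S100A7 cells, at least 2.53-fold against the floor. On this list 0 were at least 2-fold lower, against 2.25% of all measured genes. The 8 genes that reached the floor on 1 array have only bounds and cannot be placed within 2-fold. With the floor at the 30th percentile 7 genes of the list were lower, against 5.84% of all measured genes. CXADR, an adhesion protein of tight junctions that also serves as a virus receptor, was lower with all 4 probe sets, at 1111 and 598 with the brightest (log2 ratio -0.89) and from -1.21 to -0.63 over the 4, the -1.21 being a bound.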

How the data were processed

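Total RNA of 2 samples, 1 per group, was hybridised to Affymetrix GeneChip arrays after biotin labelling, per the labels' protocols. The deposited table holds linear intensities, 1 for each probe set, from MAS5 per the submitters' processing notes. No version is given in the sources used here. Over 54675 probe sets both arrays had a 2% trimmed mean of 500.1, and no further scaling was applied.

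The platform's annotation gave the gene names: 41091 with 1 gene, 1801 with several, 11721 with none and 62 controls. Of the 41091, 41037 took current symbols from RefSeq (GRCh38.p14). Probe sets counted as measured if they reached the floor, the 50th percentile of an array's probe sets other than controls, on 1 array or both. Values under the floor were set to it, and a gene's log2 ratio is that of its brightest measured probe set. Genes were counted at 2-fold. With 1 array per group no spread between samples exists, and the number of arrays limits the precision. The SD of log2 ratios among probe sets of 1 gene was 0.36 for 6465 genes and 0.39 for 11 of the genes described here.

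The alternatives were other scalings, other floors, a pseudocount of 32, the median over probe sets, no probe sets with the suffixes _x_at or _s_at, and thresholds of 1.5-fold and 3-fold. The genes, lists and tests were chosen with earlier results of these data known. All 43 genes are accounted for; of the wider list, those at least 2-fold apart are named by rule, and others named were chosen after their values were seen. Columns left unused numbered 0. Counting was tested on simulated data with changes of at least 3-fold in genes well above the floor. That test does not bear on calls near 2-fold or near the floor. Python 3.11.15, numpy 2.4.6 and pandas 2.3.3 were used.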

Additional observations from a re-analysis of the deposited data

How the results depend on the processing

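With 1 array per group, these limits are of processing only. No paired analysis was possible because each group has 1 array and the values come from no test. The count of members at least 2-fold higher, 2 as reported, was 1 with the floor at the 70th percentile (KRT7) and 1 with a pseudocount (CLDN11). It was 1 with the median over probe sets (ELF3), 0 without shared-transcript probe sets and 0 at 3-fold. It rose to 3 with the floor at the 30th percentile (KRT7, CLDN11 and ELF3) and to 3 at 1.5-fold (KRT7, CLDN1 and ELF3). With no floor it was 5 (KRT7, CLDN11, DSC3, GRHL2 and ELF3). The count lower, 0 as reported, was 1 with the floor at the 30th percentile (DSC3) and 3 at 1.5-fold (CLDN4, TJP3 and ST14). DSC3 was thus lower under 1 setting and higher under another, with all its probe sets below the reported floor. The log2 ratio of KRT7 was -0.86 without shared-transcript probe sets. Members that reached the floor on both arrays numbered 22 as reported, 13 with the floor at the 70th percentile and 13 without shared-transcript probe sets. In the same order the shares of all genes were 56.9%, 41.9% and 50.2%. Without shared-transcript probe sets, KRT8, KRT10, KRT18, JUP, PKP2, PKP3, EPCAM, ELF3 and SPINT2 were no longer among them. Members below the floor on both arrays numbered 9, 5 with it at the 30th percentile and 23 with it at the 70th. In that order the shares of all genes were 35.8%, 15.2% and 54.6%. The median log2 ratio of members stayed between -0.17 and 0.05, positive only when the floor had to be reached on both arrays.

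All measured genes at least 2-fold higher and lower numbered 228 and 286 as reported, 679 and 979 with the floor at the 30th percentile, 99 and 88 at the 70th, 1911 and 2387 with no floor, 1030 and 1275 at 1.5-fold and 47 and 55 at 3-fold. On the wider list 1 gene was higher, against 0 with the floor at the 70th percentile, 0 when it had to be reached on both arrays, 5 with no floor, 4 at 1.5-fold and 0 at 3-fold, and 0 were lower, against 7 with the floor at the 30th percentile, 9 with no floor and 4 at 1.5-fold. These settings change which probe sets are admitted, how far a value below the floor is raised, or the size counted. Their separate parts were not tested. Single members still measured gave 220 values under the alternatives other than the thresholds. Of these, 209 moved by less than the standard deviation between probe sets, 10 by more, and 1, that of KRT7, changed sign from a called value. A gene above the floor on both arrays with 1 measured probe set keeps its value by construction under several settings. The 209 is therefore not a measure of stability. Members that were no longer measured under an alternative are not in this count. ELF3 was among them with the floor at the 70th percentile and without shared-transcript probe sets.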

Other observations

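Over all genes, the share that reached the floor on both arrays rose with the number of probe sets. Of members with 1 probe set, 8 of 15 reached it on both arrays, against 40.1% of all 9252 such genes; with 2 probe sets it was 8 of 12, against 63.4%, with 3 it was 2 of 6, against 76.0%, and with 4 or more 4 of 4, against 82.6%. Members are few in each class, and no test was made.

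Chromosome medians of the log2 ratio stood beside those of some members. On chromosome 15, 420 measured genes had a median of -0.33, where TJP1 was at -0.37 and SPINT1 at 0.22. On chromosome 19, 909 genes had a median of -0.19 and SPINT2 was at -0.31. On chromosome 6 the median of 664 genes was 0.24 and DSP, at -0.25, had the opposite sign. On chromosome 12, home of KRT7, KRT8, KRT18, KRT80 and PKP2, the median of 671 genes was -0.04 and that of these 5 members 0.11.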
